A study of Mus musculus with 24 samples.

Results

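The levels of 10 genes of the unfolded protein response and of the amino acid stress response were measured in mouse retinal organoids (MROs): Hspa5, Xbp1, Dnajb9, Herpud1, Atf4, Ddit3, Atf3, Asns, Trib3 and Chac1. They were taken by name and role, with earlier results of these data known, and were 10 of 126602 features in the files, of which 46603 were annotated genes and 79999 were loci assembled from the reads. All 10 passed the filter on low counts that left 46949 features for testing. MROs are retinal tissues grown in culture from mouse embryonic stem cells, here from the line E14Tg2a. All of them carried the genotype label Control and were labeled as treated with water, the solvent. The paper's protocol also added Matrigel and serum to the medium and, before the first timepoint, the synthetic retinoid EC23. Individual whole MROs were sampled at day 20 (D20), D22, D25 and D30 of differentiation, with 6 MROs at each timepoint. All 24 came from 1 independent experiment and 1 cell line, so that the tests measured the spread between single MROs and not between experiments. Total RNA was depleted of ribosomal RNA and sequenced.

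Proteins that enter the secretory pathway fold in the endoplasmic reticulum (ER). When unfolded proteins build up there, the sensors IRE1, PERK and ATF6 start the unfolded protein response: IRE1 splices the Xbp1 mRNA, ATF6 is cleaved to a transcription factor, and PERK phosphorylates the translation factor eIF2α. The kinase GCN2 phosphorylates the same factor when amino acids are scarce, and both routes favor the translation of ATF4, which then switches on genes of amino acid supply together with Ddit3, Atf3, Trib3 and Chac1. Photoreceptors make and export large amounts of opsin through the ER, and mutant opsins that misfold are a known trigger of this response in the retina. ATF4 and XBP1 are controlled largely after transcription, and gene counts do not tell spliced from unspliced Xbp1 mRNA.

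The short DNA elements through which these factors are known to act were looked up in the promoter windows of the 10 genes, which run from 250 bases before to 50 bases after the RefSeq transcription start (RefSeq, GRCm38.p6, all 10 matched by symbol). They are shown because they connect the members to the ER arm or to the ATF4 arm of the response. On both strands, the search used the ER stress response element (ERSE, CCAAT, then any 9 bases, then CCACG), its second form (ERSE-II, ATTGG, any base, CCACG), the XBP1 element TGACGTGG, the cAMP response element TGACGTCA and the C/EBP-ATF response element (CARE, TGATGNAA), through which ATF4 acts. Of 32544 promoter windows, 0.12% held ERSE, 0.0369% ERSE-II, 0.682% the XBP1 element, 1.8% the cAMP response element and 3.91% CARE. Stretches of 30 bases around each match follow, 5′ to 3′ on the strand of the gene, with the match in capitals. A match in the reverse orientation reads TTNCATCA.
Hspa5 ERSE: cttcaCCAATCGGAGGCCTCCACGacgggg
Herpud1 ERSE-II: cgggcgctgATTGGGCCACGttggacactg
Herpud1 CARE, reverse: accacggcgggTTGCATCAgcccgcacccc
Atf3 CARE, reverse: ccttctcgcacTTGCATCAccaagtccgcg
Asns CARE: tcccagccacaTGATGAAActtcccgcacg
Trib3 CARE, reverse: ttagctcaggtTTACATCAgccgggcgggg
Chac1 CARE, reverse: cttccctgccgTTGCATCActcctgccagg

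The Hspa5 stretch is chr2:34772020-34772049 (plus strand), and its ERSE lies from -65 to -47 relative to the RefSeq start, within an exon of a GENCODE transcript and outside the coding part. The Herpud1 stretches are chr8:94386368-94386397 and chr8:94386306-94386335 (plus strand), both upstream of the GENCODE gene. The Atf3 stretch is chr1:191183425-191183454 (minus strand), which is intronic in GENCODE because longer transcripts start farther upstream. The Asns stretch is chr6:7693214-7693243 (minus strand), in a non-coding part of an exon, with the CARE from -23 to -16. The Trib3 stretch is chr2:152344028-152344057 (minus strand), where the CARE lies 15 to 22 bases after the RefSeq start and upstream of the GENCODE gene. The Chac1 stretch is chr2:119351038-119351067 (plus strand), upstream of the gene. ERSE and ERSE-II were thus found in the windows of the chaperone gene Hspa5 and the degradation gene Herpud1, and CARE in 5 of the 10 windows, those of Herpud1, Atf3, Asns, Trib3 and Chac1. No match stood in the windows of Ddit3, Atf4, Xbp1 and Dnajb9, which says only that these letters are not in these windows.

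Between 13634846 and 19477108 reads were counted on features per MRO, and 12.9 to 16.8% of them fell on the assembled loci. At this depth 3 counts, taken as the smallest amount that can be told from 0, equal 0.154 to 0.22 normalized CPM, that is, counts scaled to a fixed library size. The libraries carried retinal markers, whose 22 genes summed to a median of 1331 CPM at D20, 1791 CPM at D22, 2979 CPM at D25 and 4286 CPM at D30. The 20 markers of other cells (pigment epithelium, pluripotent, endothelial, immune, glial, mesenchymal, heart, blood and liver cells) summed to between 27 and 80.2 CPM in all MROs, and Hba-a1 was at 0 at every timepoint. In whole MROs fewer cells of a type and less RNA per cell cannot be told apart, and whether the growing level of retinal marker RNA played a part in the differences below was not tested.

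Per kilobase of exon, Hspa5 was the most abundant of the 10 genes at every timepoint, followed by Atf4, Ddit3 and Asns. At D30 these levels were 187 ± 11.2, 117 ± 23, 49.6 ± 14.8 and 28.7 ± 2.98 CPM per kilobase (mean ± SD, n = 6 here and below). Dnajb9 (16.9 ± 2.02) and Xbp1 (16.7 ± 1.34) came next and did not differ beyond their spread, and Herpud1 stood at 9.66 ± 0.883. Atf3 was at 8.26 ± 2.78 CPM per kilobase at D30 after 2.52 ± 0.91 at D20. Trib3 and Chac1 were the least abundant at every timepoint and changed places between timepoints, at 2.38 ± 0.569 and 2.28 ± 1.03 CPM per kilobase at D30, within their spread.

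**Figure D1:**
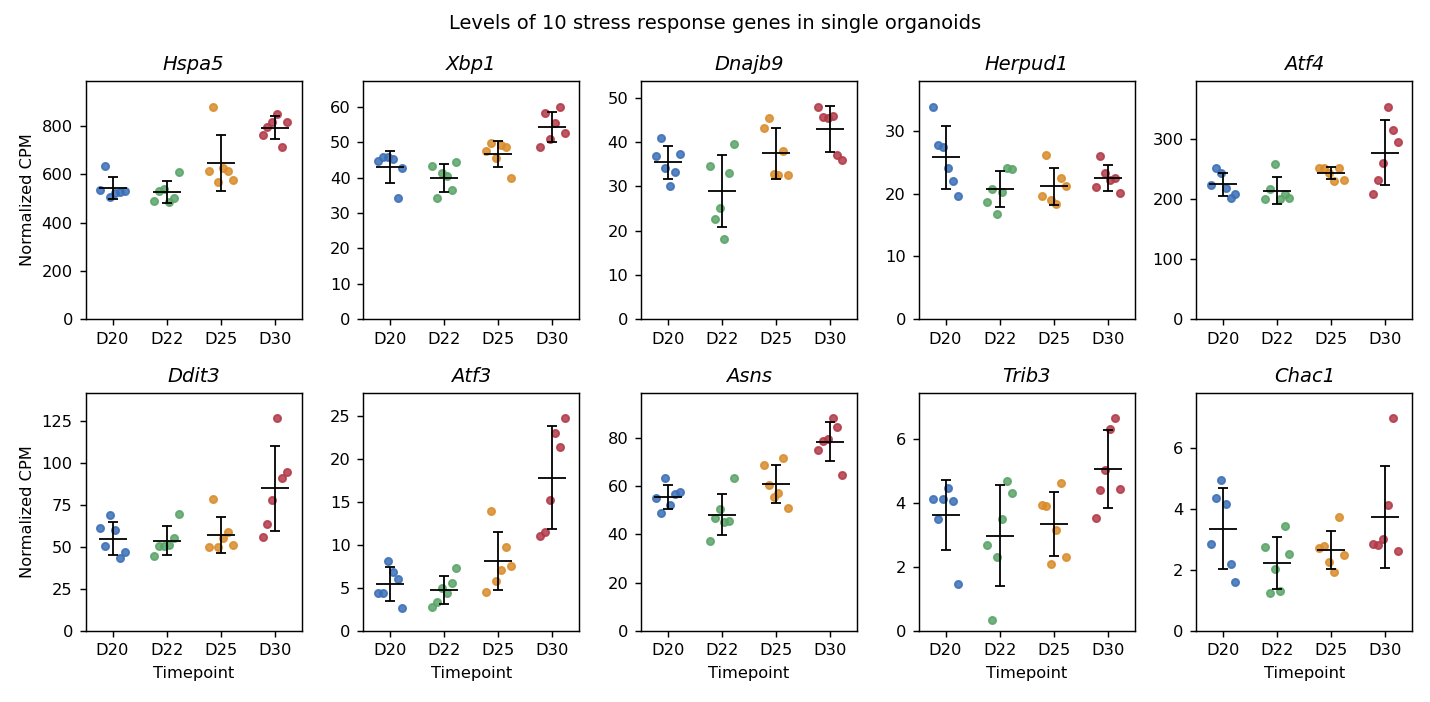
Normalized CPM (vertical axis, linear, from 0) of the 10 genes in each of 24 MROs by timepoint (horizontal axis). Points are single MROs, and black bars give the mean ± SD of 6. The D30 points of Hspa5, Xbp1, Atf3 and Asns lie above all D20 points, while the points of Herpud1 and Chac1 overlap throughout.

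Hspa5 encodes BiP, the main Hsp70 chaperone of the ER, which also holds the stress sensors inactive. Its level was 507.6 CPM in the lowest, 528.7 CPM in the median and 635.5 CPM in the highest MRO at D20, and 487.6, 517.4 and 610.5 CPM at D22. At D25 it was 568.9, 614.9 and 881.5 CPM, and at D30 it was 715.6, 806.8 and 848.8 CPM. All 6 MROs at D30 lay above all 6 at D20, and 1 MRO at D25 (replicate 2) lay above every D30 MRO. From D20 to D30 Hspa5 rose 1.46-fold (log2 fold change 0.55, SE 0.09, edgeR's quasi-likelihood test, adjusted p = 1.14e-05).

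Xbp1, the transcription factor whose mRNA IRE1 splices, rose less. It was measured at 34.28, 44.9 and 45.74 CPM in the lowest, median and highest MRO at D20, at 34.26, 40.81 and 44.44 CPM at D22, at 39.84, 48.01 and 49.64 CPM at D25 and at 48.71, 53.93 and 60.06 CPM at D30. The D20 and D30 MROs did not overlap. The rise from D20 to D30 was 1.26-fold (log2 fold change 0.34, SE 0.09, adjusted p = 0.00532 by edgeR). This call depended on the processing and on single MROs: adjusted p was 0.0328 without the filter on low counts, 0.0114 with filterByExpr, 0.0151 with annotated genes only and 0.016 with the compared timepoints only, and the call was also lost without replicate 5 or 6 of D20 or without replicate 2, 4 or 5 of D30, with adjusted p up to 0.0188.

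Dnajb9 encodes an ER-resident J-domain partner of BiP. The lowest, median and highest MRO held 30.08, 35.55 and 41.04 CPM at D20, 18.19, 29.11 and 39.52 CPM at D22, 32.58, 35.48 and 45.53 CPM at D25 and 35.92, 45.58 and 48.08 CPM at D30. D22 had the widest spread, and all 4 timepoints overlapped in part. The difference between D30 and D20 missed the threshold (log2 fold change 0.28, SE 0.14, adjusted p = 0.131 by edgeR), with 4 of 6 D30 MROs above all D20 MROs.

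Herpud1, an ER membrane protein of the machinery that hands misfolded proteins to the proteasome, differed from the other members in its order of means. Its lowest, median and highest values were 19.72, 25.76 and 33.91 CPM at D20, 16.75, 20.52 and 24.03 CPM at D22, 18.42, 20.4 and 26.22 CPM at D25 and 20.07, 22.37 and 26.06 CPM at D30. Its mean was highest at D20, and it was the only one of the 10 with a D30 mean below the D20 mean, a difference that missed the threshold (log2 fold change -0.20, SE 0.13, adjusted p = 0.249 by edgeR). Herpud1 overlaps the antisense gene Gm15890 by 535 bases, and that gene held 41 counts over all 24 MROs against 8435 for Herpud1.

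Atf4, the transcription factor that both arms of the eIF2α response call on, was at 200.8, 220.8 and 251.1 CPM in the lowest, median and highest MRO at D20. It was at 199.4, 204 and 256.9 CPM at D22, at 230.2, 246.6 and 251.8 CPM at D25 and at 207.1, 276.2 and 353.1 CPM at D30. At D30 the 6 MROs spread widely, with 4 above every D25 MRO and 1 below all of them. The difference between D30 and D20 was 1.23-fold and missed the threshold by edgeR's test (log2 fold change 0.30, SE 0.10, adjusted p = 0.0158), whereas DESeq2 gave an adjusted p of 0.00376. It also passed with DESeq2's size factors in edgeR (adjusted p = 0.00427) and without replicate 1 or without replicate 2 of D30, at log2 fold changes of 0.37 and 0.35.

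Ddit3 encodes CHOP, a transcription factor that links long-lasting ER stress to cell death. It was at 43.39, 55.04 and 68.71 CPM in the lowest, median and highest MRO at D20, at 44.32, 50.84 and 69.59 CPM at D22, at 49.68, 52.94 and 78.37 CPM at D25 and at 55.96, 84.5 and 126.7 CPM at D30. The D30 MROs overlapped the D20 MROs, with 4 of 6 above all of them. Ddit3 rose 1.54-fold from D20 to D30 (log2 fold change 0.63, SE 0.16, adjusted p = 0.00194 by edgeR). Without replicate 4 of D30, the MRO with the highest value, the log2 fold change was 0.48 with an adjusted p of 0.0113. Ddit3 shares 68 bases with Mars, the methionyl-tRNA synthetase gene on the opposite strand, which did not pass the test between D30 and D20 (log2 fold change -0.05, adjusted p = 0.732).

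Atf3, a stress-induced factor of the same bZIP family, had the largest change of the 10 genes. It was at 2.689, 5.24 and 8.116 CPM in the lowest, median and highest MRO at D20, at 2.82, 4.654 and 7.252 CPM at D22, at 4.516, 7.265 and 13.94 CPM at D25 and at 11.02, 18.29 and 24.72 CPM at D30. All D30 MROs lay above all D20 and all D22 MROs, and 4 of 6 lay above all D25 MROs. The increase from D20 to D30 was 3.28-fold (log2 fold change 1.71, SE 0.28, adjusted p = 1.21e-05 by edgeR). The counts behind it ran from 42 to 118 per MRO at D20 and from 188 to 446 at D30.

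Asns encodes asparagine synthetase, a textbook ATF4 target. It was at 49.1, 55.86 and 63.55 CPM in the lowest, median and highest MRO at D20, at 37.45, 46.25 and 63.53 CPM at D22, at 51.06, 58.96 and 71.79 CPM at D25 and at 64.86, 79.21 and 88.28 CPM at D30. No D30 MRO overlapped the D20 or D22 MROs. Asns rose 1.41-fold from D20 to D30 (log2 fold change 0.50, SE 0.11, adjusted p = 0.000579 by edgeR).

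Trib3, a pseudokinase switched on by ATF4 and CHOP, and Chac1, an enzyme that degrades glutathione, were measured with few reads. The lowest, median and highest Trib3 values were 1.473, 4.09 and 4.486 CPM at D20, 0.3489, 3.092 and 4.676 CPM at D22, 2.077, 3.529 and 4.636 CPM at D25 and 3.54, 4.737 and 6.658 CPM at D30, and the lowest D22 MRO held 5 counts. Those of Chac1 were 1.601, 3.511 and 4.952 CPM at D20, 1.256, 2.277 and 3.453 CPM at D22, 1.937, 2.611 and 3.744 CPM at D25 and 2.605, 2.933 and 6.985 CPM at D30. The timepoints overlapped for both genes. Neither passed the test between D30 and D20 by edgeR, with log2 fold changes of 0.48 for Trib3 (SE 0.34, adjusted p = 0.282) and 0.15 for Chac1 (SE 0.31, adjusted p = 0.739).

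From D20 to D30, 5 of the 10 genes rose (Atf3, Ddit3, Hspa5, Asns and Xbp1) and none fell at an adjusted p below 0.01, and 6 had an unadjusted p under 0.05. Of all features tested, 13.9% rose and 13% fell, and of the annotated genes among them 25.1% rose and 16.7% fell. The D30 values of 4 members lay above all D20 values (Hspa5, Atf3, Asns and Xbp1), as did those of 9.6% of all features tested. That share includes the assembled loci and was not taken for annotated genes alone, so it is not a like background for the members. The median log2 fold change of the 10 genes was 0.41, beside -0.04 for all features tested and 0.10 for the annotated genes among them. Hspa5, Atf3 and Asns passed in each of the alternatives tried, which included leaving out each MRO in turn. The joint test of all 4 timepoints called the same 5 genes, against 27.2% of all features. In the fit of annotated genes only, this test called 7627 of 16284 genes and no longer called Xbp1 (adjusted p = 0.0169 by edgeR).

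The single steps between timepoints were smaller. The shares of all features given for them include the assembled loci, so they are not a like background for the members. In the fit of annotated genes only, 699 of 16284 genes passed for D22 against D20 and 1995 for D25 against D22, in either direction. Between D20 and D22 no member passed (0 of 10, against 1.9% of all features), all 10 differences lay below 0 with a median log2 fold change of -0.20 (annotated genes -0.06), and 2 had an unadjusted p under 0.05, those of Herpud1 (log2 fold change -0.32, SE 0.13) and Dnajb9 (-0.30, SE 0.14). Between D22 and D25 none passed either (0 of 10, against 5.28% of all features), all 10 differences lay above 0 with a median of 0.24 (annotated genes 0.10), and 5 had an unadjusted p under 0.05. The largest of these were those of Atf3 (log2 fold change 0.77, SE 0.28, adjusted p = 0.0734 by edgeR), Dnajb9 (0.38, SE 0.14, adjusted p = 0.0927) and Asns (0.34, SE 0.11, adjusted p = 0.0445), and Hspa5 stood at 0.30 (SE 0.09, adjusted p = 0.0263). These 2 steps share the D22 MROs, which therefore enter both sets of differences. Without replicate 6 of D22, Asns passed between D22 and D25 with a log2 fold change of 0.43.

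Between D25 and D30, Atf3 was the only member that rose (1 of 10, against 1.76% of all features), by 2.21-fold (log2 fold change 1.14, SE 0.27, adjusted p = 0.00775 by edgeR). In the fit of annotated genes only, 1482 of 16284 genes passed this step in either direction. All 10 differences lay above 0, with a median log2 fold change of 0.33 (annotated genes 0.05), and 5 had an unadjusted p under 0.05. Those of Ddit3 (0.57, SE 0.16, adjusted p = 0.0205), Asns (0.37, SE 0.11, adjusted p = 0.0365) and Hspa5 (0.29, SE 0.09, adjusted p = 0.0413) missed the threshold by edgeR, and DESeq2 called Ddit3 and Asns in addition to Atf3. The call of Atf3 was lost, at adjusted p values up to 0.0223, in 9 of the 24 fits that left out 1 MRO, namely replicate 1, 3, 4, 5 or 6 of D25 and replicate 3, 4, 5 or 6 of D30.

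**Figure D2:**
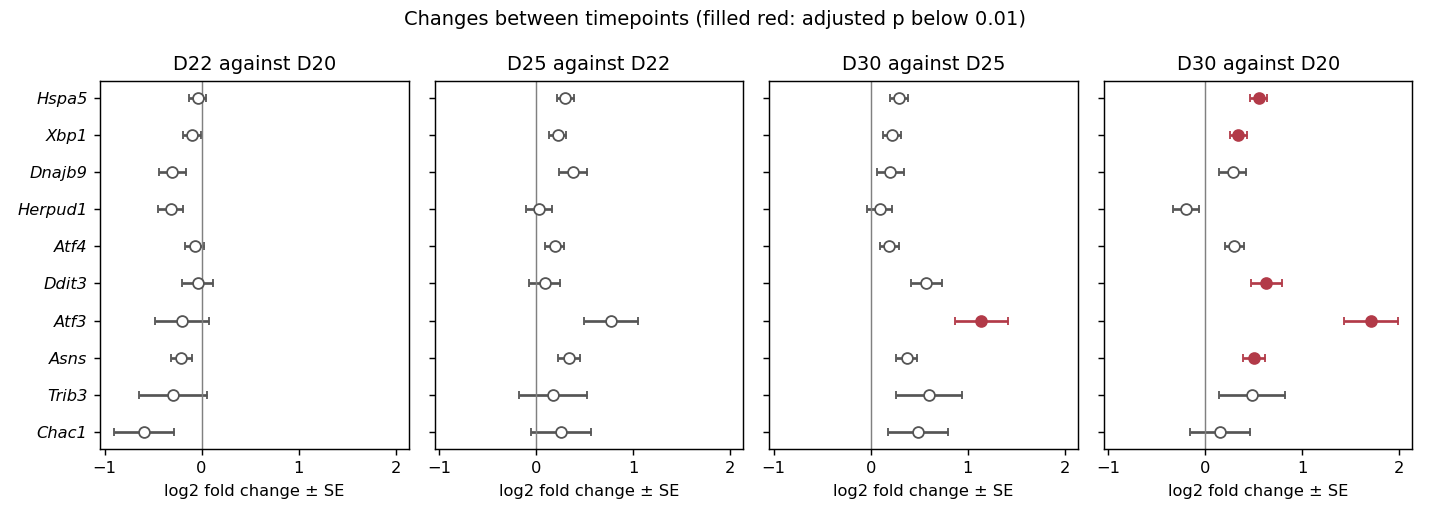
Log2 fold change ± SE (horizontal axis) of the 10 genes for the 3 steps between timepoints and for D30 against D20, from edgeR's fit over all 24 MROs. Filled red points passed an adjusted p of 0.01, which 0, 0, 1 and 5 genes did from left to right, and open grey points did not.

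One MRO at D25, replicate 2, held the highest D25 value of 7 members: Hspa5, Ddit3, Atf4, Atf3, Herpud1, Xbp1 and Dnajb9. Its Hspa5 level of 881.5 CPM stood beside 628.5 CPM in the next D25 MRO, and its Atf3 level of 13.94 CPM stood beside 9.747 CPM. It had the fewest counted reads of the D25 libraries, 14524620. Without it Hspa5 rose from D25 to D30 by 0.40 on the log2 scale (adjusted p = 0.000925 by edgeR), Ddit3 by 0.69 (adjusted p = 0.00666) and Atf3 by 1.36 (adjusted p = 0.00206), so that 3 members passed that step. Without it the difference between D22 and D25 was 0.19 for Hspa5 and 0.55 for Atf3. At D22, replicate 6 held the highest value of 6 members.

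The 6 MROs at D30 held like orders of Ddit3, Atf3 and Atf4. Ddit3 was at 55.96, 63.43, 78.08, 126.7, 90.93 and 94.68 CPM in replicates 1 to 6. Atf3 was at 11.02, 11.5, 15.23, 22.98, 21.35 and 24.72 CPM and Atf4 at 207.1, 231.8, 259.1, 353.1, 313.9 and 293.4 CPM in the same MROs. Replicates 4, 5 and 6 thus had the highest values of all 3 genes, and replicate 1 had the lowest of all 3. Hspa5 was at 761.9, 797.2, 816.5, 848.8, 715.6 and 817.2 CPM in these MROs, and its lowest value was in replicate 5. The coefficient of variation at D30 was 29.9% for Ddit3, 33.7% for Atf3 and 19.6% for Atf4, against 5.98% for Hspa5, and it was highest for Chac1, a gene of few counts, at 45%. The like order of Atf4 was not seen at all timepoints. Spearman's rank correlation of Ddit3 with Atf4 was 0.66, -0.09, 0.20 and 0.94 at D20, D22, D25 and D30. That of Atf4 with Atf3 was 0.20, 0.20, 0.26 and 0.83, and that of Ddit3 with Atf3 was 0.43, 0.94, 0.94 and 0.94.

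The share of small nucleolar RNAs (snoRNAs) in the counts on annotated genes moved with the levels of Ddit3, Atf3 and Atf4 at D30. It was 0.18, 0.225, 0.47, 0.623, 0.528 and 0.477% in replicates 1 to 6, so that it too was highest in replicates 4, 5 and 6. Between timepoints it went the other way, from a range of 0.545 to 1.07% at D20 to one of 0.18 to 0.623% at D30. Within the other timepoints the match was partial. Replicate 3 of D20 had the highest share (1.07%), Ddit3 and Atf3. Replicate 1 of D22 (0.449%) and of D25 (0.304%) had the lowest share, Ddit3 and Atf3. Replicate 2 of D22 (0.809%) and replicate 5 of D25 (0.666%) had the highest shares but not the highest Ddit3 or Atf3. Replicate 6 of D20 had the lowest share (0.545%) and Atf3, but not the lowest Ddit3. Immediate early genes, which also respond to handling, went both ways between D20 and D30: the most abundant of the named ones, Btg2, had means of 633.2 ± 59.2 and 192.5 ± 57.5 CPM, and Fos had means of 6.383 ± 2.2 and 13.12 ± 5.08 CPM. The part of RNA content, or of handling, in the levels of Ddit3, Atf3 and Atf4 was not tested.

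**Figure D3:**
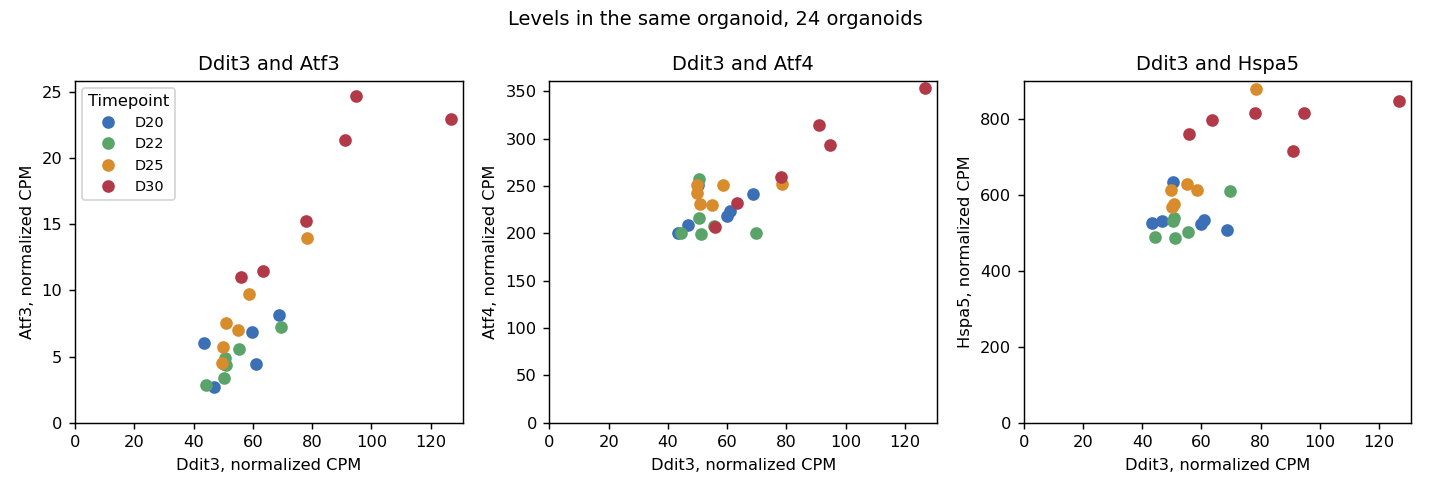
Normalized CPM of Atf3, Atf4 and Hspa5 (vertical axes, linear, from 0) against that of Ddit3 (horizontal axis) in the same MRO, with 1 point for each of 24 MROs colored by timepoint. The D30 MRO with 126.7 CPM of Ddit3 is also the highest in Atf4, at 353.1 CPM, and the 3 D30 MROs with the most Ddit3 have the most Atf3.

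The genes whose levels deviated most like those of each member were sought among 10829 annotated genes (10830 for Trib3 and Chac1). Likeness was the Pearson correlation of log2 CPM deviations from the timepoint means over the 24 MROs, in which both genes of a pair come from the same library and share its depth and RNA composition. For Atf3 the 3 nearest genes were the snoRNA Gm26397 (r = 0.82), Ddit3 (0.79) and the snoRNA Gm25835 (0.77). Those of Ddit3 were Gm26397 (0.85), Ccdc107 (0.85) and the snoRNA Snord15a (0.84). Those of Hspa5 were the small Cajal body RNA Gm22009 (0.72), the snoRNA Gm24336 (0.71) and Mia2 (0.71), a gene of cargo export from the ER. Atf4 was nearest to Ubxn1 (0.85), Clta (0.84) and 2310033P09Rik (0.83), and Xbp1 to the glycolytic genes Aldoa (0.80) and Pkm (0.80) and to Elmsan1 (0.79).

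Asns was nearest to Rnf44 (0.73), Tsen34 (0.73) and Krtcap2 (0.71), and Dnajb9 to Rabggtb (0.80) and Seh1l (0.79). Herpud1 was nearest to Pla2g12a (0.75), Frat2 (0.75) and Fgfr1op (0.72). The low counts of Trib3 and Chac1 limit their values, which were highest for Cebpd (0.83), Jup (0.79) and Tfe3 (0.77) with Trib3 and for Auh (0.78), Tmem161a (0.77) and Nadsyn1 (0.76) with Chac1. Ddit3, for Atf3, was the only member among the 30 nearest genes. Of the pairs between the 3 stress factors and Hspa5, Ddit3 and Atf3 were the most alike (r = 0.79) and Hspa5 and Atf4 the least (0.22).

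The other genes of the pathway were taken from lists that had been chosen by their known roles, and their counts stand beside the 25.1% of annotated genes that rose and the 16.7% that fell from D20 to D30. Of 12 tested sensors, eIF2α kinases and phosphatases, 4 rose and 1 fell from D20 to D30, with a median log2 fold change of 0.14. Those that rose were Eif2ak3, which encodes PERK, Atf6, Ern1, which encodes IRE1, and Eif2ak1. Eif2ak3 had means of 64.02 ± 6.02 CPM (D20), 59.82 ± 2.45 CPM (D22), 80.45 ± 2.87 CPM (D25) and 108 ± 13 CPM (D30), with no overlap between D22 and D25 or between D25 and D30. Its log2 fold change for D30 against D20 was 0.75 (SE 0.09, adjusted p = 2.6e-08 by edgeR). Atf6 rose from 53.01 ± 3.6 to 84.16 ± 6.73 CPM (log2 fold change 0.67, SE 0.10, adjusted p = 1.78e-06). The gene that fell was Eif2ak4, which encodes the amino acid sensor GCN2, from 48.16 ± 7.97 to 27.14 ± 4.54 CPM (log2 fold change -0.83, SE 0.13, adjusted p = 1.02e-05).

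Of 24 ER chaperones, folding enzymes and degradation genes, 7 rose and 1 fell from D20 to D30, with a median log2 fold change of 0.15. Dnajb11, a BiP partner, rose from 59.28 ± 6.95 to 107.1 ± 9.21 CPM (log2 fold change 0.85, SE 0.09, adjusted p = 1.25e-08 by edgeR). Most of its difference lay between D22 and D25, at 0.66 (SE 0.09, adjusted p = 2.9e-05). Dnajc3, the ER co-chaperone p58IPK, rose from 61.76 ± 5.02 to 111 ± 15.7 CPM (log2 fold change 0.85, SE 0.09, adjusted p = 1.76e-08). Creld2, Dnajc10, Pdia3, Hsp90b1 and Pdia4 also rose, and Ero1l, the oxidase that feeds disulfide bonds, fell from 178.7 ± 30 to 81.72 ± 36.6 CPM (log2 fold change -1.13, SE 0.30, adjusted p = 0.00366). The fall of Ero1l was no longer called without replicate 1 of D20 or without replicate 3, 5 or 6 of D30.

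Of 29 genes of amino acid synthesis, transport and tRNA charging, 5 rose and 9 fell, with a median log2 fold change of -0.05. Slc7a11, the cystine transporter, rose from 4.018 ± 0.896 CPM at D20 to 25.19 ± 17.7 CPM at D30 (log2 fold change 2.65, SE 0.33, adjusted p = 1.2e-07 by edgeR), with D30 MROs between 10.81 and 59.61 CPM. Slc3a2, its partner subunit, Psph, Wars and Aars rose as well. Pycr1, an enzyme of proline synthesis, fell from 9.963 ± 2.11 to 2.857 ± 1.1 CPM (log2 fold change -1.80, SE 0.24, adjusted p = 3.9e-07). Slc1a5, Shmt2, Slc38a2, Aldh18a1 and the tRNA synthetase genes Iars, Sars and Tars fell as well. Cth, which makes cysteine, fell from 64.86 ± 10.4 to 19.96 ± 4.61 CPM (log2 fold change -1.70, SE 0.19, adjusted p = 2.34e-08). Asns rose beside a list whose members went both ways.

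Of 14 other targets of ATF4 and CHOP, 1 rose and 6 fell, with a median log2 fold change of -0.50. The gene that rose was Cebpb, from 1.185 ± 0.798 to 3.999 ± 1.39 CPM (log2 fold change 1.75, SE 0.43, adjusted p = 0.00164 by edgeR). Stc2, a secreted glycoprotein gene, fell from 83.15 ± 16.1 to 27.45 ± 10.8 CPM (log2 fold change -1.60, SE 0.26, adjusted p = 1.31e-05). Eif4ebp1, which encodes a repressor of translation, fell from 8.511 ± 2.21 to 3.267 ± 0.782 CPM (log2 fold change -1.38, SE 0.26, adjusted p = 6.38e-05). Ero1l, which stands on 2 of the lists, Bbc3, Atf5 and Bcl2l11 fell too, the cell death genes Bbc3 and Bcl2l11 thereby opposite in direction to Ddit3. The number that rose was 2 with DESeq2, with its size factors, with the replicate block and without replicate 1 of D20, replicate 1 or 2 of D22, replicate 1 of D25 or replicate 1, 5 or 6 of D30.

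Of 10 cytosolic heat shock genes, 3 rose and 1 fell, and of 13 immediate early genes, 3 rose and 4 fell. Hsp90aa1 rose (log2 fold change 0.65, SE 0.10, adjusted p = 6.81e-06 by edgeR), Hsph1 rose (0.37, SE 0.10, adjusted p = 0.00569) and Hsp90ab1 fell (-0.92, SE 0.11, adjusted p = 4.1e-08). In the fit of annotated genes only, 1 heat shock gene rose and 3 fell. The number that rose was also 1 without replicate 5 of D20 or without replicate 4 or 5 of D30, and the number that fell was 2 without replicate 5 of D20 and 3 without replicate 1 of D30. Among the immediate early genes Ier3 (1.79, SE 0.23, adjusted p = 2.72e-07) and Fos (1.04, SE 0.27, adjusted p = 0.00295) rose and Btg2 fell (-1.72, SE 0.15, adjusted p = 2.51e-10). The number of immediate early genes that fell was 2 with DESeq2, with its size factors, with the compared timepoints only and without replicate 1, 3 or 4 of D20 or replicate 2 or 3 of D30.

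**Figure D4:**
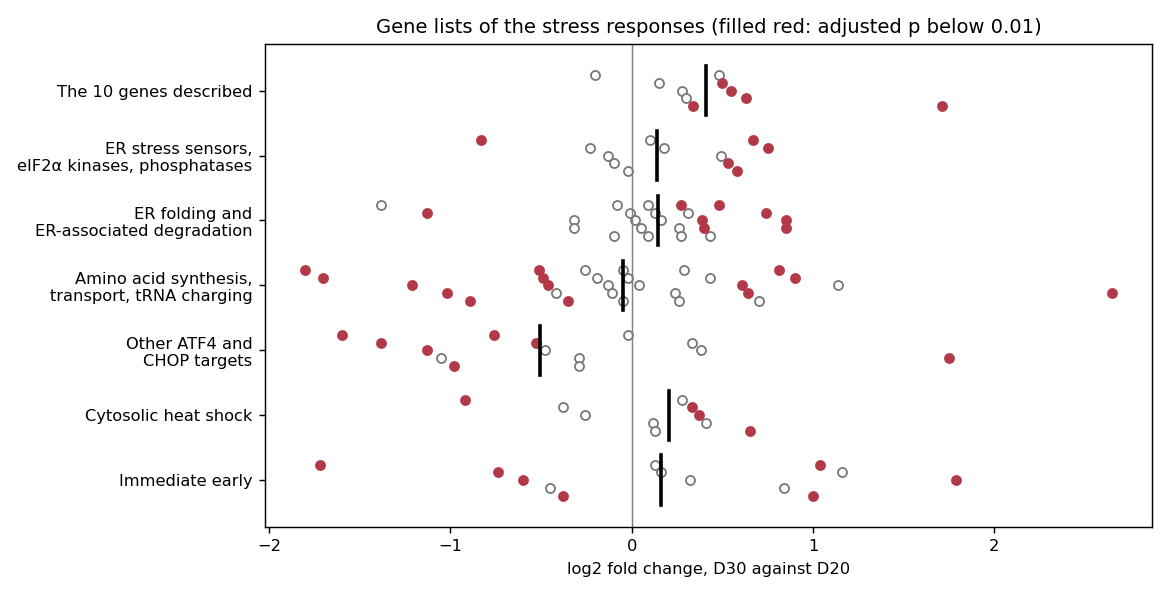
Log2 fold change of D30 against D20 (horizontal axis) for the tested genes of each list, with 1 point a gene, filled red where the adjusted p was below 0.01, and a black bar at the median of the list. The medians are 0.41 for the 10 genes described, 0.14 for the sensors, 0.15 for ER folding, -0.05 for amino acid genes and -0.50 for the other ATF4 and CHOP targets, and each of the lists other than the 10 genes has filled points on both sides of 0.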

How the data were processed

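Individual MROs from D20, D22, D25 and D30 (6 each) were measured by strand-specific RNA sequencing. The deposited values are counts per feature. To make them, the authors demultiplexed reads with bcl2fastq 2.20, trimmed them with cutadapt 1.5, aligned them to GRCm38/mm10 with hisat2, sorted them with samtools 1.1, assembled further loci with stringtie 1.3.3 and counted reads with htseq-count 0.6.1. Whether counting used strand was not given in the sources used here, so reads of overlapping antisense genes may be mixed. Rows without a gene (no feature, ambiguous) were left out.

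Counts were normalized by TMM and tested with edgeR 4.0.16 (quasi-likelihood, R 4.3.3) in 1 fit of all 24 MROs, over 46949 features (16253 annotated, 30696 assembled) with a base mean of at least 10. Benjamini-Hochberg adjusted p values below 0.01 were called. SE is the absolute log2 fold change over the square root of F. The script was tested on simulated data. Their spread was below the common spread estimated here, and their changes were larger than those of most members. Alternatives were DESeq2 1.42.0, its size factors in edgeR, no filter, filterByExpr, annotated genes only, a replicate block, the compared timepoints only, a threshold of 0.05 and leaving out each MRO.

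The members, lists and tests were chosen with earlier results of these data known. Named genes were the 10 members, per list the 3 called genes with the largest absolute log2 fold change for D30 against D20 (some further called genes are named without values), and per member the 3 genes most like it whose normalized counts averaged 100 or more (1 of these is not reported here). No 2 libraries of a timepoint agreed within sampling noise (60 pairs, chi-square per degree of freedom at least 6.393). Gene coordinates and exon lengths are from GENCODE M21 (GRCm38).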

Additional observations from a re-analysis of the deposited data

Results flagged for a closer look

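In 7 of 40 groups of 6 MROs (10 genes at 4 timepoints), 1 MRO stood apart from the other 5 by Dixon's criterion, which chance exceeds in about 1 in 20 groups. The groups are not independent, since the 10 genes were measured in the same libraries, so the number flagged does not test for an excess. Hspa5 was at 635.5 CPM in replicate 2 of D20 (next 533.6) and at 881.5 CPM in replicate 2 of D25 (next 628.5). Ddit3 was at 78.37 CPM in the same D25 MRO (next 58.6). Atf4 was at 256.9 CPM in replicate 3 of D22 (next 216.5), and Chac1 was at 6.985 CPM in replicate 5 of D30 (next 4.128). Low values were those of Trib3 in replicate 6 of D20, at 1.473 CPM (next 3.493), and of Xbp1 in replicate 5 of D20, at 34.28 CPM (next 42.58). The cause of these values was not tested.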

How the results depend on the processing

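Hspa5, Atf3 and Asns were called for D30 against D20 in all alternatives tried, at log2 fold changes of 0.47 to 0.61, 1.57 to 1.86 and 0.40 to 0.56. Of 280 comparisons of a member under the settings that kept all MROs, 268 kept direction and side of the threshold, and of 960 with 1 MRO left out, 931 did. The main fit called only 1 member for D30 against D25 and 5 for D30 against D20, so most of these were uncalled differences that stayed uncalled. A call of the main fit was lost in 5 of the 280 and in 15 of the 960. The number of members called for D25 against D22 was 2 instead of 0 at an adjusted p below 0.05. For D30 against D25 it was 3 with DESeq2, 4 at an adjusted p below 0.05 and 0 with the compared timepoints only, instead of 1. With 1 MRO left out it ran from 0 to 1 for D25 against D22, from 0 to 3 for D30 against D25 and from 3 to 6 for D30 against D20. The lowest of the last, 3, came without replicate 4 of D30, where Ddit3 and Xbp1 were lost. With annotated genes only, the difference of D22 against D20 turned to 0.01 for Hspa5 and to 0.01 for Ddit3, and that of D25 against D22 to -0.06 for Herpud1. With 1 MRO left out, uncalled differences crossed 0 for Hspa5 (-0.09 to 0.01) and Ddit3 (-0.13 to 0.04) in D22 against D20, for Ddit3 (-0.02 to 0.18), Trib3 (-0.07 to 0.34) and Herpud1 (-0.04 to 0.07) in D25 against D22 and for Chac1 (-0.12 to 0.29) in D30 against D20. The cause of these changes was not tested. The median log2 fold change of annotated genes for D30 against D20 was 0.10, 0.01 with annotated genes only and 0.16 with DESeq2's size factors. The replicate block kept 5 members called for D30 against D20. In their deviations from the timepoint means, same-numbered MROs of different timepoints correlated at -0.0833 to 0.214 (mean 0.0129, 36 pairs). Those with different numbers correlated at -0.285 to 0.195 (mean -0.00254, 180 pairs). Of the 24 MROs, 8 were nearest to 1 with their own number. Whether the numbers pair the MROs was not tested. Trib3 and Chac1 held 5 to 107 counts per MRO, the fewest of the 10 genes.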
